A study of Mus musculus with 162 samples.

Results

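The Cyp4a genes encode cytochrome P450 enzymes that add a hydroxyl group to the terminal, or omega, carbon of fatty acids. The members described here were chosen by gene symbol and are Cyp4a10, Cyp4a14, Cyp4a31, Cyp4a32, Cyp4a12a and Cyp4a12b, 6 of the 53686 genes in the count table. As background, an omega-hydroxylated fatty acid is oxidised by alcohol and aldehyde dehydrogenases to a dicarboxylic acid, which peroxisomes then shorten. In mouse liver, Cyp4a10 and Cyp4a14 are classical targets of PPARα, the nuclear receptor that fatty acids activate. Cyp4a12a and Cyp4a12b are known as male-biased genes of liver and kidney, and Cyp4a31 and Cyp4a32 are close copies of Cyp4a10.

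Messenger RNA was sequenced from 9 organs of 18 adult male C57BL/6J mice aged 8 to 9 weeks, with 3 mice at each of 6 fasting times. Control mice ate ad libitum (0 h), and the other mice had been without food for 2, 8, 12, 18 or 22 h when all were killed shortly after lights off. The 8 and 12 h fasts began in the light phase and are called the daytime fast (n = 6 mice), and the 18 and 22 h fasts began in the preceding night and are called the late fast (n = 6). Each mouse gave olfactory bulb (OB), brain (BRN), cerebellum (CBL), brainstem (BST), stomach (STM), liver (LIV), interscapular brown fat (iBAT), perigonadal white fat (pgWAT) and posterior subcutaneous white fat (psWAT), so replicates within an organ were separate mice.

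Of the libraries, 1 per organ and mouse, all but 5 were retained, with total counts of 3045845 to 27801717. The 18 LIV libraries held 6959200 to 12451777 counts, and 3 counts, the floor used for a gene at 0, stood for 0.241 to 0.431 counts-per-million (CPM) there. All 10 hepatocyte markers were detected in LIV, led by Alb at 59784 ± 5551 CPM (SD, n = 18).

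The LIV libraries stood apart from each other in 2 ways that touch the results below. Replicates 1 and 2 at 0 h differed by a mean chi-square of 2.13 per gene, where 1 is sampling noise alone, against 9.64 to 90.0 for the other 17 same-time pairs of LIV. The same 2 mice differed by 7.07 in OB and 48.6 in STM, and the LIV libraries were kept as 2 mice, as labelled. The library names place 8 LIV libraries in lane 1 (all of 0 and 2 h and 2 of 8 h) and 10 in lane 2 (the third 8 h library and all of 12, 18 and 22 h).

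Among the 9 organs sampled, which did not include kidney, the family was a liver family in these mice. LIV held 99.2% of all counts of the 6 genes over the retained libraries, and their summed level there was 782 ± 242 CPM (SD, n = 18), from 453 to 1183 CPM. The next organ was pgWAT, where 2 libraries gave most of the counts and the mean was 3.73 ± 9.84 CPM (n = 18). STM followed at 1.85 ± 2.24 CPM (n = 17), iBAT at 0.742 ± 0.552 CPM (n = 17) and OB at 0.431 ± 0.334 CPM (n = 18). The means of pgWAT, STM, iBAT and OB differed by less than the spread among libraries. In BRN, CBL, BST and psWAT the summed level was at most 0.367 CPM in every retained library.

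**Figure D1:**
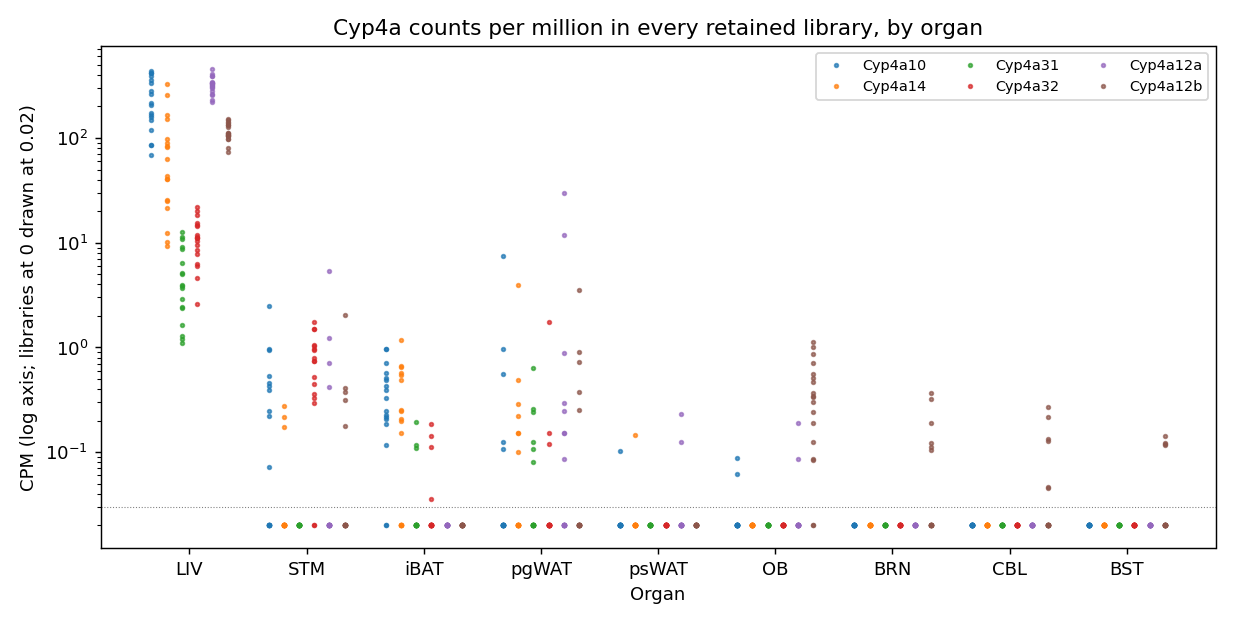
CPM of each Cyp4a gene on a log axis in every retained library, by organ, with libraries at 0 drawn at 0.02 under the dotted line. LIV libraries lay between 1.10 and 458 CPM, and in the other organs the 2 highest points were Cyp4a12a in pgWAT at 29.8 and 11.8 CPM.

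Levels of different genes were compared only per kilobase of annotated exon. On that scale, over all 6 times together, Cyp4a12a was the most abundant member in LIV, at 133.4 ± 25.4 CPM per kb (SD, n = 18), followed by Cyp4a10 at 114.02 ± 59.5 CPM per kb. Cyp4a12b stood at 48.3 ± 9.36 CPM per kb and Cyp4a14 at 33 ± 34.1 CPM per kb. Cyp4a32 stood at 7.45 ± 3.45 CPM per kb and Cyp4a31 was lowest, at 2.08 ± 1.51 CPM per kb. The neighbours Cyp4a12a and Cyp4a10, Cyp4a12b and Cyp4a14, and Cyp4a14 and Cyp4a32 differed by less than the larger of their SDs. The order of the means turned at some times: Cyp4a10 stood at 161.1 ± 37.3 CPM per kb at 8 h and 172.3 ± 33.8 at 22 h, against 151.2 ± 33.6 and 151.1 ± 17.5 for Cyp4a12a (SD, n = 3). Cyp4a14 stood at 75.0 ± 47.1 CPM per kb at 8 h, against 43.9 ± 12.5 for Cyp4a12b. Cyp4a32 is annotated with 1536 exon bases, nearly all coding, against 2109 to 2601 for the other members, and reads that fit several copies equally well had been dropped before counting, so these levels carry that uncertainty. In whole liver, fewer expressing cells and less RNA per cell cannot be told apart.

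Cyp4a10, known as a PPARα target, which hydroxylates medium-chain fatty acids, measured 148.8, 171.9 and 120.1 CPM at 0 h, 435.3, 166.8 and 68.2 CPM at 2 h and 337.1, 262.6 and 419.8 CPM at 8 h. It then measured 206.3, 86.1 and 158.9 CPM at 12 h, 85.3, 215.1 and 355.9 CPM at 18 h and 389.0, 418.1 and 282.8 CPM at 22 h. All 3 libraries at 8 h and all 3 at 22 h lay above every 0 h library, while the 2, 12 and 18 h libraries fell on both sides. The means were 340 ± 78.7 CPM at 8 h and 363 ± 71.2 CPM at 22 h against 146.9 ± 26 CPM at 0 h (SD, n = 3), a ratio of 2.31 at 8 h and 2.47 at 22 h. Of all 14023 genes tested, 18.0% had every 8 h library above every 0 h library and 18.3% every 22 h library, and 0.128% were called at 8 h and 0.849% at 22 h, a call being an adjusted p under 0.05 with a log2 fold change beyond 1 in size. Cyp4a10 was not called at either time (adjusted p = 0.388 and 0.280).

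Cyp4a14, also known as a PPARα target, is an omega-hydroxylase on the opposite strand next to Cyp4a10 and measured 40.2, 40.5 and 25.2 CPM at 0 h, 150.4, 25.5 and 10.2 CPM at 2 h and 165.7, 89.9 and 329.6 CPM at 8 h. It measured 43, 12.4 and 21.5 CPM at 12 h, 9.23, 81.8 and 254 CPM at 18 h and 62.4, 98.5 and 84.4 CPM at 22 h. As with Cyp4a10 and 18.0% and 18.3% of the genes tested, the 8 h and 22 h libraries all lay above every 0 h library, and it was not called at either time (adjusted p = 0.290 and 0.586); the lowest and highest of the 18 h libraries lay far apart. Its mean at 8 h was 195.1 ± 122.5 CPM against 35.3 ± 8.75 CPM at 0 h (SD, n = 3), a ratio of 5.52. That ratio leaned on replicate 3 at 8 h (329.6 CPM), and the medians were 165.7 CPM at 8 h and 40.2 CPM at 0 h. Over the 18 LIV libraries its highest value was 35.7 times its lowest, against 6.38 times for Cyp4a10.

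**Figure D2:**
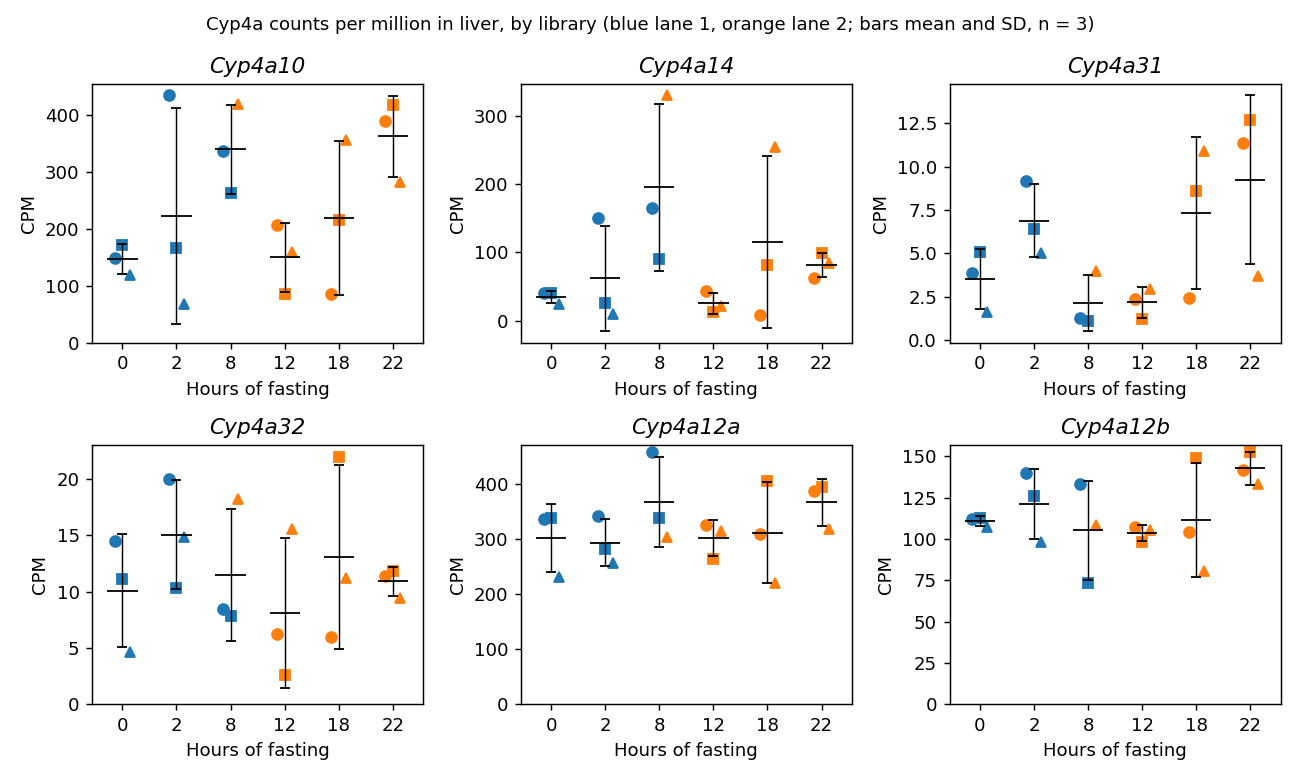
CPM of each Cyp4a gene in LIV against hours of fasting, 1 point per library, with circles, squares and triangles for replicates 1, 2 and 3, blue for lane 1 and orange for lane 2, and bars for the mean and SD of 3 mice. The 8 h and 22 h points of Cyp4a10 and Cyp4a14 all sit above their 0 h points, and the 18 h points of Cyp4a14 run from 9.23 to 254 CPM.

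Cyp4a31, a close copy of Cyp4a10, was a low-level gene. It measured 3.84, 5.09 and 1.64 CPM at 0 h, 9.17, 6.42 and 5.02 CPM at 2 h and 1.29, 1.10 and 3.98 CPM at 8 h. It measured 2.38, 1.2 and 2.93 CPM at 12 h, 2.45, 8.62 and 10.9 CPM at 18 h and 11.4, 12.7 and 3.67 CPM at 22 h. None of the 8 and 12 h libraries lay above 3.98 CPM, a range that also held replicates 1 and 3 at 0 h, and 4 of the 6 late-fast libraries lay above every daytime-fast library. The other 2, replicate 1 at 18 h and replicate 3 at 22 h, lay within the daytime range.

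Cyp4a32, the other close copy of Cyp4a10, measured 14.5, 11.2 and 4.63 CPM at 0 h and 20, 10.4 and 14.8 CPM at 2 h. It measured 8.45, 7.79 and 18.2 CPM at 8 h and 6.20, 2.60 and 15.5 CPM at 12 h. At 18 h it measured 6.01, 22 and 11.2 CPM, and at 22 h 11.4, 11.9 and 9.46 CPM. Its values at each fasting time overlapped those at 0 h.

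Cyp4a12a, the main arachidonic acid omega-hydroxylase of the male mouse, varied least of the members together with its near-copy Cyp4a12b. Cyp4a12a ranged from 220 to 458 CPM over the 18 LIV libraries, and its means by time ran from 293 ± 43 CPM at 2 h to 366 ± 81.4 CPM at 8 h, with 301 ± 61.6 CPM at 0 h (SD, n = 3). Cyp4a12b measured 112.1, 112.7 and 107.4 CPM at 0 h, 107.0, 98.1 and 105.5 CPM at 12 h and 141.9, 152.9 and 133.4 CPM at 22 h. All 3 libraries of Cyp4a12b at 22 h lay above, and all 3 at 12 h below, every 0 h library, as for 18.3% and 12.3% of the genes tested. It was not called at 22 h or 12 h (adjusted p = 0.418 and 0.761), where 0.849% and 1.96% of genes were called. At 2, 8 and 18 h Cyp4a12b overlapped the 0 h values, and Cyp4a12a overlapped them at every time.

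The first comparison asked whether a fast begun in the preceding night, after hours of feeding in that night, went with a different level of the family. Cyp4a10 and Cyp4a14 were each above every 0 h library in 5 of the 6 late-fast mice and below every one in replicate 1 at 18 h. Cyp4a31 was above every 0 h library in 4 of 6 and below every one in 0, Cyp4a12b above in 4 and below in 2, Cyp4a12a above in 3 and below in 1, and Cyp4a32 above in 1 and below in 0. The difference of the late fast from 0 h was 0.86 on the log2 scale for Cyp4a10 (SE 0.55, 95% interval -0.34 to 2.05, adjusted p = 0.352). For Cyp4a14 it was 1.38 (SE 0.96, interval -0.71 to 3.46, adjusted p = 0.397), and 0.69 without replicate 3 at 18 h. For Cyp4a31 it was 1.13 (SE 0.58, interval -0.11 to 2.37, adjusted p = 0.231). Cyp4a32, Cyp4a12a and Cyp4a12b differed by 0.14, 0.07 and 0.10, with adjusted p-values of 0.906, 0.838 and 0.774.

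By edgeR's quasi-likelihood test with Benjamini-Hochberg adjustment, 0 of the 6 members were called in the late fast against 0 h, where 1.66% of the 14023 genes were. None of the 6 had an unadjusted p under 0.05, where 26.7% of the genes had, and DESeq2 also called 0. The intervals of Cyp4a10, Cyp4a14, Cyp4a31 and Cyp4a32 (-1.12 to 1.40) reach past a doubling, so a difference of that size was not excluded at this sample number. All 0 h libraries were in lane 1 and all late-fast libraries in lane 2, so lane and time cannot be told apart except through the 8 h libraries. A lane term in the fit compares replicate 3 at 8 h, in lane 2, with the 8 h libraries of lane 1, so it rests on that library. Replicate 3 held the highest 8 h values of Cyp4a10, Cyp4a14, Cyp4a31 and Cyp4a32, but not of Cyp4a12a or Cyp4a12b. With lane in the fit the differences of Cyp4a14, Cyp4a31, Cyp4a32 and Cyp4a12b turned to -0.069, -0.67, -1.10 and -0.054. Over the alternatives other than leaving out a library, that of Cyp4a10 ran from 0.30 to 0.92 and that of Cyp4a12a from 0.065 to 0.40.

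The second comparison set the daytime fast against 0 h, to ask whether hours without food in the light phase, when mice eat little, went with a different level. Cyp4a10 was above every 0 h library in 4 of 6 daytime-fast mice and below every one in 1, and Cyp4a14 was above in 4 and below in 2. For both genes the mice above were all 3 at 8 h and 1 of 3 at 12 h. Cyp4a31 was above every 0 h library in 0 of 6 and below every one in 3 of 6, and Cyp4a12b was above in 1 and below in 4. The log2 differences were 0.57 for Cyp4a10 (SE 0.54, adjusted p = 0.559), 0.94 for Cyp4a14 (SE 0.95, adjusted p = 0.583) and -0.78 for Cyp4a31 (SE 0.61, adjusted p = 0.457). Taken alone, 8 h gave 1.11 for Cyp4a10 and 2.38 for Cyp4a14, and 12 h gave 0.02 and -0.50. With lane in the fit, its term resting on replicate 3 at 8 h, Cyp4a14 and Cyp4a31 differed in the daytime fast by -0.11 and -2.12 (adjusted p = 0.972 and 0.183). Without lane, Cyp4a32, Cyp4a12a and Cyp4a12b differed by -0.11, 0.08 and -0.15. By edgeR 0 members were called, where 0.813% of genes were. By that test 0 members had an unadjusted p under 0.05, where 25.7% of genes had, and DESeq2 called 0. This comparison and the first share the 0 h libraries. In the daytime fast 0 of 6 macrophage and Kupffer markers were higher (median -0.72), 3 had an unadjusted p under 0.05 by edgeR, and DESeq2 called 1. All 5 muscle markers were higher (median 2.74), 1 with such a p. Of 10 hepatocyte markers 4 were higher (median -0.18), and 3 were lower at an adjusted p under 0.05, where 8.89% of genes had one. The part of these markers in the members' differences was not tested.

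The third comparison tested the difference between the late and the daytime fast itself. Cyp4a31 was the member that differed: its mean was 8.28 ± 4.27 CPM in the late fast against 2.15 ± 1.16 CPM in the daytime fast (SD, n = 6), a ratio of 3.86. Its log2 difference was 1.91 (SE 0.47, 95% interval 0.89 to 2.92, adjusted p = 0.0485 by edgeR's quasi-likelihood test with Benjamini-Hochberg adjustment). It was 1 of 6 members called, where 0.492% of the genes were called by edgeR. DESeq2 called it too at an adjusted p of 0.00708, and the share of genes that DESeq2 called is not reported here. In edgeR the call was lost with RLE factors (adjusted p = 0.0504), with a replicate block (0.0817) and with only the groups compared in the fit (0.0829). It was also lost with replicates 1 and 2 at 0 h summed. The other 5 members differed by -0.00 (Cyp4a12a) to 0.44 (Cyp4a14) on the log2 scale and were not called. For Cyp4a14 the mean CPM was lower in the late fast (98.5 ± 82.5 against 110.4 ± 121.3; SD, n = 6), the opposite direction to its fitted difference.

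In the same comparison all 6 macrophage and Kupffer markers (median log2 difference 0.51) and all 6 endothelial markers (median 0.23) were higher in the late fast, and so were 9 of 10 hepatocyte markers (median 0.15), 4 of them with an unadjusted p under 0.05. Of the macrophage and of the endothelial markers 3 each had an unadjusted p under 0.05, where 21.7% of all genes tested had, and 0 genes of the 3 lists were called by edgeR or DESeq2. Of 5 muscle markers 1 was higher (median -1.42) and 1 had an unadjusted p under 0.05, and of 3 adipocyte markers 1 was higher (median -0.31) and 2 had, with 0 called in either list. The part of these markers in the difference of Cyp4a31 was not tested.

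The call of Cyp4a31 lay close to its threshold. Within lane 2 the late-fast libraries compared with replicate 3 at 8 h and the 3 libraries at 12 h, and the log2 difference with lane in the fit was 1.45 (adjusted p = 0.320). Leaving out 1 library at a time kept the call only without replicate 3 at 8 h (adjusted p = 0.0233), replicate 1 at 18 h (0.00975) or replicate 3 at 22 h (0.0407). Without any 1 of the other 9 libraries of the comparison the log2 difference was 1.68 to 2.09 and Cyp4a31 was not called.

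The fasting times were also set against 0 h one by one. Cyp4a14 at 8 h was 2.38 higher on the log2 scale (SE 1.08, adjusted p = 0.290), and Cyp4a10 at 22 h was 1.26 higher (SE 0.62, adjusted p = 0.280). Cyp4a31 at 22 h was 1.33 higher (SE 0.64, adjusted p = 0.262). At 2, 8, 12, 18 and 22 h, 0 members were called by edgeR, where 0.0570%, 0.128%, 1.96%, 2.17% and 0.849% of the genes were called. Cyp4a14 at 8 h was the 1 case with an unadjusted p under 0.05 by edgeR, where 16.8% of the genes had one at 8 h. DESeq2 had 1 member with an unadjusted p under 0.05 at 8 h and 1 at 22 h, and called 0 at any of the 5 times. By edgeR 20.2% of the genes had such a p at 22 h. In the joint test of the 6 times, 0 members passed an adjusted p of 0.05 where 16.0% of genes did, Cyp4a31 came nearest at an adjusted p of 0.0871 and was the 1 member of 6 with an unadjusted p under 0.05, where 35.2% of genes had, and this joint test was run with edgeR alone.

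The members differed in their spread between mice. The biological coefficient of variation, the relative spread between mice of 1 time left after counting noise, was 0.823 for Cyp4a14, above 99.3% of the 14023 genes. It was 0.545 for Cyp4a32, 0.526 for Cyp4a31 and 0.504 for Cyp4a10, all above at least 97.2% of the genes. Cyp4a12a and Cyp4a12b stood at 0.191 and 0.184, above 59.3% and 56.8% of the genes, beside an all-gene median of 0.168. Genes of nearly the same mean level had a median of 0.127 for Cyp4a14, 0.141 for Cyp4a12a and 0.132 for Cyp4a12b. Fasting time held 58.2% of the variance of Cyp4a31, 42.6% of that of Cyp4a10 and 41.7% of that of Cyp4a14, against a median of 45.2% over all genes. It held 34.1% of that of Cyp4a12b, 25.3% of that of Cyp4a12a and 22.5% of that of Cyp4a32.

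As shares of the family's counts in LIV, which differ with gene length, Cyp4a12a gave 43.9 ± 10.3% and Cyp4a10 28.8 ± 7.85% (SD, n = 18). Cyp4a12b gave 15.8 ± 4.26%, Cyp4a14 9.34 ± 7.64%, Cyp4a32 1.5 ± 0.719% and Cyp4a31 0.650 ± 0.374%. At 8 h Cyp4a14 took 18.2 ± 8.57% of the counts against 5.75 ± 0.524% at 0 h, and Cyp4a12a took 36.9 ± 9.91% against 49.4 ± 2.13% (SD, n = 3). In the late fast the share of Cyp4a10 was 31.7 ± 9.23% (n = 6) against 24.2 ± 1.35% at 0 h (n = 3; two-sided exact permutation p = 0.155). The share of Cyp4a12a was 40.4 ± 12.0% against 49.4 ± 2.13%, lower than every 0 h library in 5 of 6 (exact permutation p = 0.274). For 0 of the 6 members was the exact p under 0.05; the smallest that 84 arrangements can give is 0.0119.

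Cyp4a10 and Cyp4a14 followed each other from mouse to mouse. Over the 18 LIV libraries, log2 (CPM + 1) of Cyp4a10 and Cyp4a14 gave r = 0.921 (permutation p = 1e-05, the smallest that 100000 permutations can give; 0.00015 adjusted over the 15 pairs of members) and rho = 0.924. Without the 2 libraries farthest in Cyp4a10, replicate 3 at 2 h and replicate 1 at 18 h, r was 0.885. It was 0.969 within lane 1 (8 libraries), 0.899 within lane 2 (10 libraries) and 0.942 for the deviations from the time means, so mice of 1 fasting time varied in both genes together.

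**Figure D3:**
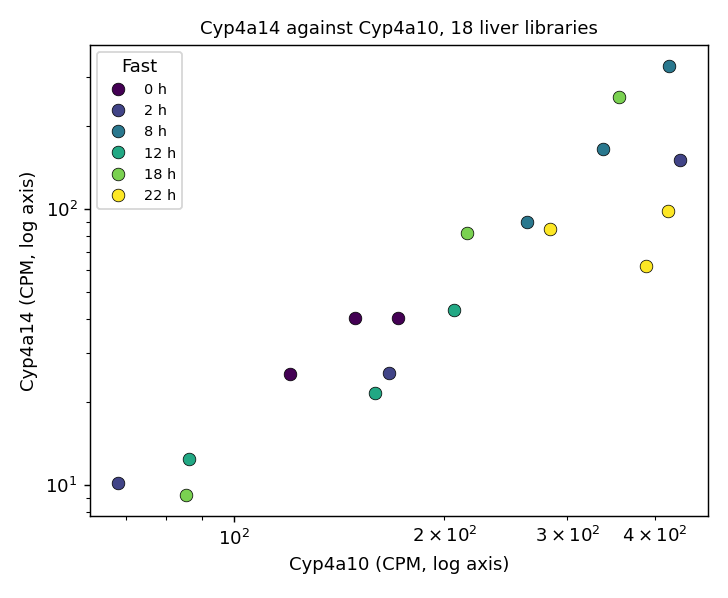
CPM of Cyp4a14 against Cyp4a10 in the 18 LIV libraries, both on log axes, coloured by hours of fasting. The points run along 1 diagonal, and the libraries of 2 h and of 18 h lie at both of its ends.

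Among the other pairs of members, 2 pairs of close copies had an adjusted p under 0.05. Cyp4a31 and Cyp4a32 gave r = 0.647 (permutation p = 0.00317, adjusted p = 0.0238) and rho = 0.662 (p = 0.00332), with r = 0.717 without the 2 farthest libraries and 0.792 and 0.618 within lanes 1 and 2. Cyp4a12a and Cyp4a12b gave r = 0.624 (permutation p = 0.00572, adjusted p = 0.0286) and rho = 0.676 (p = 0.00308), with r = 0.513 without the 2 farthest. Within the lanes this last pair gave r = 0.269 in lane 1 and 0.935 in lane 2, a difference that was not tested. The remaining 12 pairs had adjusted p-values of 0.132 to 0.656, and Cyp4a10 with Cyp4a31 gave r = 0.455 pooled, -0.0502 in lane 1 and 0.766 in lane 2. For the deviations from the time means r was 0.717 for Cyp4a31 and Cyp4a32 and 0.741 for Cyp4a12a and Cyp4a12b, and Cyp4a31 was about as close to Cyp4a10 (0.738) and Cyp4a14 (0.708).

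Among 13232 genes compared, the gene most like Cyp4a10 over the 18 LIV libraries was Cyp4a14, followed by Retsat (r = 0.806), Ppp2r2d (0.789), Cyp2c38 (0.783) and Csad (0.754). After Cyp4a10, Cyp4a14 was most like Csad (0.826), Acot4 (0.825), Tfdp2 (0.809) and Crat (0.808), the last an acyltransferase that makes carnitine esters. Cyp4a31 was most like Por (0.875), the reductase that passes electrons to microsomal P450 enzymes, then Slc27a2 (0.842), Pnpla2 (0.839), Eci2 (0.831) and Rcl1 (0.814). Cyp4a32 was most like Pank3 (0.794), Eci2 (0.766), Tpbgl (0.749), Wwc2 (0.741) and Smurf2 (0.737). Cyp4a12a was most like Gm25835 (0.741), Samd5 (0.704), Gm6467 (0.695), Rpusd3 (0.695) and Rita1 (0.682). Cyp4a12b was most like Adtrp (0.825), and its nearest genes also included Rpl32 (0.752), Ndufa1 (0.748) and Rps10-ps2 (0.748).

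Part of the PPARα target genes moved with Cyp4a10, Cyp4a14 and Cyp4a31 between mice of 1 fasting time. Of 29 such genes compared, 16 had an r above 0.5 with Cyp4a14 after the time means were taken out, with a median of 0.527, where 5.89% of all genes had and the all-gene median was -0.0242. Cyp4a10 gave 14 genes and a median of 0.470, and Cyp4a31 gave 14 genes and a median of 0.480, where 4.25% and 4.22% of all genes did. Cyp4a32 gave 5 genes (median 0.265), where 1.99% of all genes did. Cyp4a12b gave 2 (6.90%; median 0.0777) and Cyp4a12a 1 (3.45%; median 0.121), beside 4.32% and 4.13% of all genes.

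In the late fast against 0 h, 26.7% of the 14023 genes tested had an unadjusted p under 0.05, 10.6% an adjusted p under 0.05, and 1.66% were called, and the lists below are to be read beside these shares. Of the 30 genes of the PPARα list 0 were called by edgeR and 0 by DESeq2, 5 had an unadjusted p under 0.05 by edgeR, 3 had an adjusted p under 0.05, all lower, 11 were higher than at 0 h, and the median log2 difference was -0.05 beside 0.01 over all genes tested. Its most abundant gene was the fatty acid binding protein Fabp1, at 5263 ± 834 CPM. Cyp4a10 and Cyp4a14 stood at 0.86 and 1.38 beside the median of that list, and neither was called.

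The steps that follow the Cyp4a reaction gave 0 calls of 17 genes tested in the late fast by either tool, 8 unadjusted p-values under 0.05 and a median of -0.18, with Scp2 the most abundant at 2313 ± 239 CPM. Of these genes 4 had an adjusted p under 0.05, all lower. Of the 5 electron donors of P450 enzymes 0 were called by either tool (2 unadjusted p-values under 0.05, median -0.13), and Pgrmc1 led at 1577 ± 160.6 CPM. The 14 other Cyp4 genes summed to 750 ± 55.2 CPM, led by Cyp4v3 at 362 ± 31.4 CPM; 8 were tested, 0 were called by either tool and 3 had an unadjusted p under 0.05 by edgeR. Cyp4a29 and Cyp4a30b, which lie beside or between the members, were at 0 in every LIV library, together with Cyp4f37 and Cyp4f40. Of 18 nuclear receptors and cofactors, led by Nr1i3 at 865 ± 247 CPM, edgeR called 0 and DESeq2 1, with 6 unadjusted p-values under 0.05 and a median of 0.13.

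Cyp4a12a and Cyp4a12b were set beside 8 other male-biased liver genes, led by Selenbp2 at 2283 ± 854 CPM, and 8 female-biased ones, which summed to 7.06 ± 3.01 CPM with Cyp17a1 at 5.50 ± 2.02 CPM in the lead and Cyp2b13 and Cyp3a41a at 0. Of the male-biased genes 3 had an unadjusted p under 0.05 in the late fast against 0 h, with a median of -0.16, and 1 was called by each tool. By edgeR this was Gstp1, with a log2 difference of 1.05 (SE 0.23, adjusted p = 0.00991), higher where Cyp4a12a and Cyp4a12b differed by 0.07 and 0.10.

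Markers of other cell types were also summed in LIV. Adipocyte markers summed to 35.2 ± 7.04 CPM (led by Lipe), endothelial to 115.2 ± 15.3 (Clec4g), cholangiocyte to 55.7 ± 15.9 (Spp1), stellate and fibroblast to 154.8 ± 15.5 (Dcn), and neuron and glia to 11.8 ± 2.31 (Syt1). Kidney tubule markers, of an organ known for Cyp4a12a, summed to 0.312 ± 0.479 CPM, with 3 of 8 at 0 (Slc12a1, Aqp2 and Slc22a12), and gastric markers to 1.94 ± 4.35 CPM with Muc5ac at 0. Macrophage and Kupffer markers ran from 122.9 to 334 CPM, highest in replicate 3 at 0 h (most abundant gene Clec4f), and muscle markers from 0.642 to 675 CPM, highest in replicate 1 at 12 h (most abundant gene Acta1). The 12 h library with the most muscle RNA had Cyp4a10 at 206.3 CPM and Cyp4a14 at 43 CPM, the highest of the 12 h libraries, and the part of these markers in the members' values was not tested.

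The 6 genes lie in 1 cluster, which is why their copies were compared base by base. In the Gencode M21 annotation of GRCm38 they span chr4:115299046-115621602, 323 kb, with 5 genes on the plus strand and Cyp4a14 on the minus strand. Cyp4a12a lies at chr4:115299046-115332815, Cyp4a12b at chr4:115411624-115439034 and Cyp4a14 at chr4:115486200-115496142. Cyp4a10 follows at chr4:115518264-115533649, Cyp4a31 at chr4:115563649-115579015 and Cyp4a32 at chr4:115600969-115621602. Cyp4a10 and Cyp4a14, the pair of members with the highest correlation from mouse to mouse, are thus neighbours on opposite strands.

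**Figure D4:**
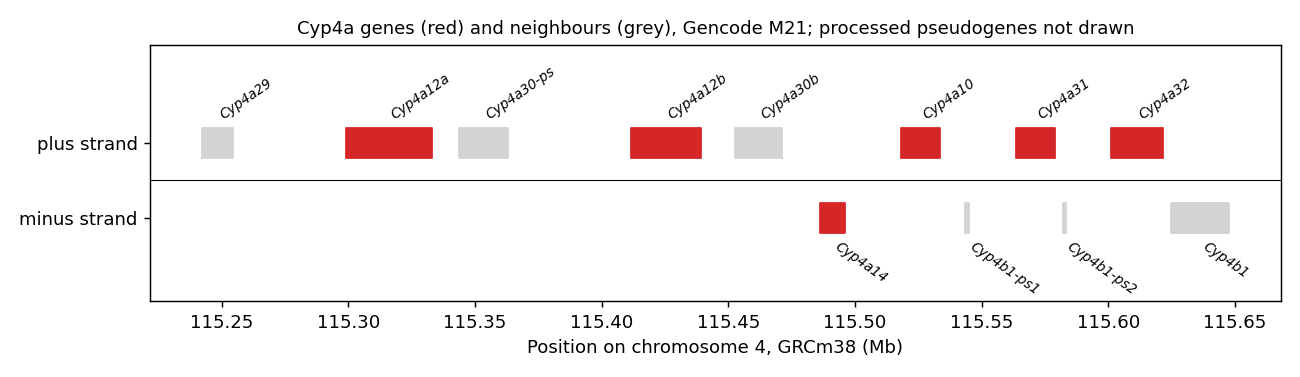
Map of the Cyp4a cluster on chromosome 4 (GRCm38, Gencode M21), with the members in red and other annotated genes in grey, by strand. Of the 6 members, Cyp4a14 is the 1 on the minus strand, next to Cyp4a10.

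Coding sequences split the family into 3 groups. Cyp4a12a and Cyp4a12b were identical at 98.5% of aligned coding bases, with 23 differing. Cyp4a10 and Cyp4a32 were identical at 97.2%, Cyp4a10 and Cyp4a31 at 96.6% and Cyp4a31 and Cyp4a32 at 96.0%. All pairs across the groups lay between 75.7% and 80.3%, with Cyp4a14 the most distant. Cyp4a10 and Cyp4a14, with r = 0.921 between their levels, shared only 76.8% of bases, and 0% of the 100-base windows of Cyp4a14 transcripts occur in another gene.

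The shared windows bear on how well the copies could be counted apart. For Cyp4a12a 35.8% and for Cyp4a12b 36.2% of 100-base windows occur in the other, against 12.2% for Cyp4a10, 18.2% for Cyp4a32 and 7.33% for Cyp4a31. Reads that fit only such windows were not counted, so the split within each group of copies is uncertain. With the copies summed, Cyp4a10, Cyp4a31 and Cyp4a32 together differed by 0.83 in the late fast against 0 h (SE 0.53, adjusted p = 0.347) and Cyp4a12a with Cyp4a12b by 0.08 (SE 0.17, adjusted p = 0.809).

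The stretch around the codon of the cysteine that holds the haem iron shows the 3 groups in 51 coding bases of exons 11 and 12. It is given 5′ to 3′ on the coding strand, from the Gencode M21 transcripts, with capitals at the 7 positions where the members differ.
Cyp4a10: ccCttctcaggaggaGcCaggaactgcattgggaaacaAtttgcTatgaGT
Cyp4a31: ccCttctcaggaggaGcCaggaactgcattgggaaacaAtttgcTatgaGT
Cyp4a32: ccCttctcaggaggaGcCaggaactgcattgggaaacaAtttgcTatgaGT
Cyp4a14: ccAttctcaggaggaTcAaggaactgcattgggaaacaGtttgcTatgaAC
Cyp4a12a: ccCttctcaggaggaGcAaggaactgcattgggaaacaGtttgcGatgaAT
Cyp4a12b: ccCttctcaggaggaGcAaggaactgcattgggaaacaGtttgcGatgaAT
Cyp4a10, Cyp4a31 and Cyp4a32 were identical here, Cyp4a14 differed from them at 6 bases, and Cyp4a12a and Cyp4a12b, identical to each other, at 4. With the intron between, the stretch of Cyp4a10 spans chr4:115529499-115532561 on the plus strand, and that of Cyp4a14 spans chr4:115487281-115489808 on the minus strand.

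Outside LIV single members stood out in single organs. In OB the only member above the filter on low counts was Cyp4a12b, with 90 counts over 18 libraries against 3 of its near-copy Cyp4a12a, and a mean of 0.407 ± 0.337 CPM (SD, n = 18). Its values were 0.299, 0.0869 and 0.869 CPM at 0 h, 0.704, 0.191 and 0 CPM at 2 h, 0.371, 1.13 and 0.507 CPM at 8 h and 0.0851, 0 and 0.125 CPM at 12 h. They were 1.01, 0.472 and 0.557 CPM at 18 h and 0.243, 0.345 and 0.339 CPM at 22 h. The late-fast values lay within the 0 h range except for the first 18 h library, and the log2 difference was 0.21 (SE 0.64, adjusted p = 0.873). At 12 h, with 3 counts in 3 libraries, it was -2.38 (SE 1.01, unadjusted p = 0.0280, adjusted p = 0.614), where 7.33% of the genes in OB had an unadjusted p under 0.05. The joint test of the 6 times gave an unadjusted p of 0.0333, where 32.4% of genes were under 0.05, and an adjusted p of 0.120. BRN, CBL and BST held 10, 8 and 4 counts of Cyp4a12b and 0 of the other members.

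In STM the member above the filter was Cyp4a32, with counts in 15 of 17 libraries and a mean of 0.763 ± 0.511 CPM. It measured 1.06, 0.332 and 0.744 CPM at 0 h, 0, 1.51 and 0.527 CPM at 18 h and 1.03, 1.49 and 0.292 CPM at 22 h, spread on both sides of the 0 h values. The log2 difference was 0.03 (SE 0.86, adjusted p = 0.987). In the late fast against 0 h 0.173% of the genes in OB and 7.09% in STM were called, and in each organ 0 of the 1 member tested by edgeR, with an unadjusted p of 0.751 in OB and 0.975 in STM. DESeq2 called 0 in STM and gave no adjusted p for Cyp4a12b in OB, where its unadjusted p was 0.818.

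For Cyp4a12b in OB and Cyp4a32 in STM, the late-fast difference did not differ detectably from that in LIV. Other members and organs were not tested in this way. Cyp4a12b in OB minus LIV gave 0.13 (SE 0.71, adjusted p = 0.936), and Cyp4a32 in STM minus LIV gave -0.01 (SE 1.18, adjusted p = 0.997), by edgeR's quasi-likelihood test. That test left out that the organs came from the same mice. With mouse as a block it gave 0.13 (SE 0.68, adjusted p = 0.935) in OB and -0.17 (SE 0.77, adjusted p = 0.932) in STM.

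Counts of the liver gene Alb were set beside those of the members outside LIV. At LIV's ratio to Alb, the 10728 Alb counts of STM would go with 2.02 counts of Cyp4a32, where 62.3 times as many were found. The same Alb counts would go with 43.6 counts of Cyp4a10 and 57.5 of Cyp4a12a, where 58 and 59 were found. Libraries differed in this: for Cyp4a10, replicate 2 at 12 h held 18 counts where its 5672 Alb counts would go with 23.04, and replicate 1 at 2 h held 11 where its 25 Alb counts would go with 0.102. In OB, 12 Alb counts would go with 0.0230 counts of Cyp4a12b, where 90 were found. In iBAT, 87 Alb counts would go with 0.353 counts of Cyp4a10 and 0.129 of Cyp4a14, where 78 and 56 were found, and Cyp4a12a and Cyp4a12b were at 0 there. The part of liver RNA in the members' counts outside LIV was not tested further.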

How the data were processed

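Gene counts of the mRNA libraries were taken as deposited by the authors, who aligned stranded paired reads to GRCm38.p5 with TopHat2 2.1.1, kept uniquely mapped reads and counted exons with HTSeq 0.9.1. The 5 libraries that the study removed for low totals (replicate 3 of STM at 12 h, replicate 2 of psWAT and 1 of iBAT at 22 h, and in BRN replicate 1 at 18 h and 3 at 8 h) were left out. Members and gene lists were chosen with earlier results of these data known. CPM were counts-per-million of a library's total. Each organ was fitted with edgeR 4.0.16 (TMM, robust quasi-likelihood, limma 3.58.1, R 4.3.3) with 6 time groups, on genes whose CPM reached that of 10 counts in the median library in at least 3 libraries, with Benjamini-Hochberg adjustment over all genes tested. All 6 members passed this filter in LIV, 1 in OB, 1 in STM and 0 in the other organs. Shares of genes called or under a p threshold are those of edgeR, and those of DESeq2 are not reported here. The test was also run on simulated counts, with an outcome that is not reported here. Alternatives were DESeq2 1.42.0, RLE factors, no filter, a replicate block, lane as a covariate, only the groups compared and leaving out each replicate; summing 0 h replicates 1 and 2 of LIV was chosen after seeing the data. Floors and intervals of counts cover counting error only. Named genes were the 6 members, most lists' most abundant gene and up to 4 called genes in the late fast, and genes among the 5 of highest r with each member among those with a mean of 1 CPM or more. The lists were PPARα targets, omega-oxidation steps, electron donors, other Cyp4 genes, nuclear receptors, male- and female-biased genes, and markers of hepatocytes, kidney tubules, adipocytes, macrophages, endothelium, cholangiocytes, stellate cells, gastric epithelium, muscle, and neurons and glia. A few genes and 1 marker list of these are not reported here. Gene positions and transcripts came from Gencode M21, and the authors counted on an earlier Gencode release of the same build. Python 3.11.15, pandas 2.3.3, numpy 2.4.6, scipy 1.17.1, matplotlib 3.10.9 and Biopython 1.88 were used.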

Additional observations from a re-analysis of the deposited data

Results flagged for a closer look

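In iBAT at 18 h, Cyp4a10 had a mean of 0.790 CPM (SD 0.311, n = 3), with all 3 libraries above the highest 0 h library at 0.330 CPM, in an organ where the members did not pass the filter on low counts. Cyp4a14 in iBAT at 18 h had a mean of 0.640 CPM (SD 0.482, n = 3), again with all 3 libraries above the highest 0 h library, at 0.209 CPM, as for 11.4% of the genes with a count in iBAT. Libraries of other times also lay above these 0 h levels: for Cyp4a10 at 2 h (0.716 and 0.389 CPM), 8 h (0.511 CPM), 12 h (0.484 CPM) and 22 h (0.566 CPM), and for Cyp4a14 at 2 h (0.648 and 0.573 CPM), 8 h (0.248 CPM) and 12 h (0.659 and 0.545 CPM). The 18 h libraries held 12, 9 and 10 counts of Cyp4a10 and 7, 11 and 5 of Cyp4a14, and the 2 retained 22 h libraries held 0 and 5 of Cyp4a10 and 0 of Cyp4a14. The 18 h libraries were not tested by themselves. Without the filter the late fast differed from 0 h by 0.79 on the log2 scale for Cyp4a10 (adjusted p = 0.662) and by -0.88 for Cyp4a14 (adjusted p = 0.771). The sign for Cyp4a14 was opposite to its mean CPM at 18 h (0.640 against 0.136 at 0 h), while its 22 h mean was 0. Replicate 2 at 22 h held 3156101 counts in all, where 3 counts stood for 0.951 CPM, above that 18 h mean.

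Cyp4a12a stood at 11.8 CPM in the pgWAT library of replicate 2 at 18 h and at 29.8 CPM in that of replicate 2 at 22 h, while the 3 pgWAT libraries at 0 h held 0 counts. The 18 h library held 21314 counts of the liver gene Alb and 74 of Cyp4a12a, 47 of Cyp4a10 and 25 of Cyp4a14. The 22 h library held 24 counts of Alb, 246 of Cyp4a12a and 6 of Cyp4a12b. The single libraries were not tested. Without the filter, the late fast in pgWAT was set against 0 h by edgeR. The adjusted p-values were 0.264 for Cyp4a12a, 0.242 for Cyp4a10 and 0.270 for Cyp4a12b (unadjusted 0.0147, 0.0109 and 0.0171). All 3 genes were at 0 counts at 0 h, so that no size is given. In that fit 0 of the 6 members were called, where 21 of 29892 genes were. In the filtered fit, which held 0 members, 21.7% of the genes in pgWAT had an unadjusted p under 0.05.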

How the results depend on the processing

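For single genes, 344 of 390 values under an alternative kept the direction and the side of the threshold, 14 lost and 2 gained a call with the direction kept, and 30 changed direction, over 34 results. In the late fast against 0 h, 0 members were called under every alternative except no filter, which called 2 (Cyp4a14 and Cyp4a31); that fit over 25595 genes gave an infinite prior df, so that Cyp4a14 was tested with a dispersion of 0.665 in place of its own 30.3. The genes called, 1.66% of those tested, became 410 of 25595 (1.60%) without the filter, 21 of 14023 (0.150%) with lane, 1.16% with only the groups compared, 1.01% with 0 h replicates 1 and 2 summed, an alternative chosen after seeing the data, and 0.953% to 2.35% when a replicate was left out. The late against the daytime fast called 0 members, not 1, with RLE factors, with the replicate block, with lane, with only the groups compared and with the 0 h pair summed, and 0 to 1 when a replicate was left out. The adjusted p of Cyp4a31 ran from 2.21e-15 to 0.320. Its lowest value came from the fit without a filter, which tested Cyp4a31 with a dispersion of 0.850 in place of its own 4.51. With lane, the late fast differed from 0 h by -0.069 for Cyp4a14, -0.67 for Cyp4a31, -1.10 for Cyp4a32 and -0.054 for Cyp4a12b, the daytime fast by -0.11 for Cyp4a14, and the late from the daytime fast by -0.10 for Cyp4a32 and 0.11 for Cyp4a12a. The summed pair gave 0.048 for Cyp4a32 in the daytime fast. The replicate block gave -0.16 for Cyp4a32 in STM, and in LIV 1.43% of the genes were called with it; replicate numbers do not pair mice across times (mean r of deviations -0.0345 for equal and 0.0165 for unequal numbers, 2 of 18 libraries nearest to their own number). Leaving out a replicate gave, in the late fast against 0 h, -0.20 to 0.49 for Cyp4a32, -0.090 to 0.17 for Cyp4a12a and -0.043 to 0.18 for Cyp4a12b; in the daytime fast, -0.63 to 0.24 for Cyp4a32 and -0.087 to 0.17 for Cyp4a12a. In the late against the daytime fast it gave -0.24 to 0.76 for Cyp4a14, -0.046 to 0.76 for Cyp4a32 and -0.13 to 0.090 for Cyp4a12a, in OB -0.20 to 0.32 for Cyp4a12b and in STM -0.38 to 0.43 for Cyp4a32. The share of Cyp4a32 ran from -0.555 to 0.0760 points. Apart from the fit without a filter, the cause was not tested.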

Other observations

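The pgWAT library of replicate 2 at 22 h, which held the most Cyp4a12a outside LIV, also held genes known from the epididymis that were chosen here after their values were seen. Crisp1 stood at 21799 CPM against at most 2896 CPM in the other pgWAT libraries, and Akr1b7 at 38922 CPM against at most 7857 CPM. Ltf stood at 108 CPM against at most 5.59 CPM, and Defb43 at 290.0 CPM against at most 40.7 CPM. Their part in the level of Cyp4a12a was not tested.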
